A study of Homo sapiens with 12 samples.

Results

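The members described here were the nuclear-encoded subunits of respiratory chain complexes I to IV, which carry electrons from NADH and succinate to oxygen in the inner mitochondrial membrane. They were taken from the gene table as protein-coding genes by symbol: those that begin with NDUFA, NDUFB, NDUFC, NDUFS or NDUFV without the NDUFAF assembly factors, those that begin with UQCR, COX4, COX5, COX6, COX7 or COX8, and SDHA, SDHB, SDHC, SDHD and CYC1. No measured value entered this rule. It found 71 of the 58735 genes in the table: 38 of complex I, 4 of complex II, 10 of complex III, 17 of complex IV, and NDUFA4 with NDUFA4L2. The last pair was kept apart, because it carries complex I names while the NDUFA4 protein is a complex IV subunit. Of the 71 members, 67 had a mean of at least 0.1 FPKM (fragments per kilobase of gene length, scaled to library size) over all libraries and could be tested, as could 18079 genes in all.

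Complex I oxidises NADH, complex II oxidises succinate and is also an enzyme of the citric acid cycle, complex III passes electrons from ubiquinol to cytochrome c, and complex IV reduces oxygen. Complexes I, III and IV pump protons and hold both nuclear-encoded subunits and subunits encoded in mitochondrial DNA, whereas all subunits of complex II are nuclear-encoded. HTRA2, the gene knocked down in this study, encodes a serine protease of the mitochondrial intermembrane space. Colonic epithelial cells rely on mitochondrial oxidation of short-chain fatty acids in the gut.

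RNA was sequenced in 12 libraries of NCM460, a human colonic epithelial cell line, 3 in each of 4 groups: medium, TNF-α (an inflammatory cytokine), TNF-α with bufotenidine, and TNF-α with HTRA2 knockdown. Genotype was labelled wild type in all but the knockdown group, and all but the medium group carried TNF-α. Bufotenidine is the quaternary trimethylammonium derivative of serotonin that the study names 5-OH-TMT. The knockdown was made with siRNA, and the study lists several siRNAs to HTRA2 without saying which each library received. The study describes its sequencing comparison as one against a control siRNA, whereas the labels name no transfection of the TNF-α libraries and do not say that they are that control. If they were not transfected, transfection and lower HTRA2 cannot be told apart, and the bufotenidine libraries, also labelled wild type, name no transfection either. All libraries were of 1 line, and the labels do not say that they came from separate cultures, so p-values measure the spread between libraries, which may be technical.

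Reads on genes, recovered from the deposited values, ran from 31008429 to 33469428 per library in medium, 31526461 to 36115461 with TNF-α, 35563523 to 36407127 with bufotenidine and 34419837 to 37624399 in the knockdown. HTRA2 was at 14.02, 17.2 and 13.3 FPKM in medium, 15.4, 13.96 and 14.2 with TNF-α, 15.4, 15.5 and 14.8 with bufotenidine and 7.44, 7.18 and 7.22 in the knockdown, 0.505 times its TNF-α level (log2 fold change -0.98 ± 0.09 (SE, adjusted p = 2.77e-05)). The epithelial markers KRT8 and KRT18 were at 887 to 1315 and 972 to 1298 FPKM, EPCAM at 58.6 to 84.9 and CDH1 at 53.3 to 88.4. The remaining marker on this list of 5 was far lower, at 1.91 to 4.35 FPKM. Of 10 colonocyte markers only CA2 passed the filter, at 8.14 to 12.5 FPKM, and the intestinal regulator CDX2 and the transporter SLC26A3 were at 0 in all 12 libraries. Of the leukocyte markers only CD14 passed the filter, at 0.0680 to 0.727 FPKM, and PTPRC and CD3E were at or near 0. The mRNAs of mitochondrial DNA lay at a log2 deviation of -0.71 from their mean (median of 13 genes) in knockdown library 2 and at -0.19 from it in TNF-α library 3. The members' counts in each comparison are also given without this pair of libraries, chosen after seeing the data. Only knockdown library 2 stood apart, since TNF-α library 2 lay at 0.24 and medium library 1 at 0.19.

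The subunit mRNAs spanned from 0.118 FPKM (NDUFA7) to 353 FPKM (NDUFS5) in the mean over the 12 libraries, a level per gene length. Median levels over the tested members were 19.5 FPKM for the 37 of complex I, 22.8 for the 4 of complex II, 62.0 for the 10 of complex III and 54.3 for the 14 of complex IV. NDUFS5, an accessory subunit of complex I, was the most abundant member at 325 to 392.4 FPKM over the 12 libraries, and CYC1, cytochrome c1 of complex III, led that complex at 184 to 292. The libraries of all groups overlapped for NDUFS5, whereas the knockdown libraries held the lowest CYC1 values.

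**Figure D1:**
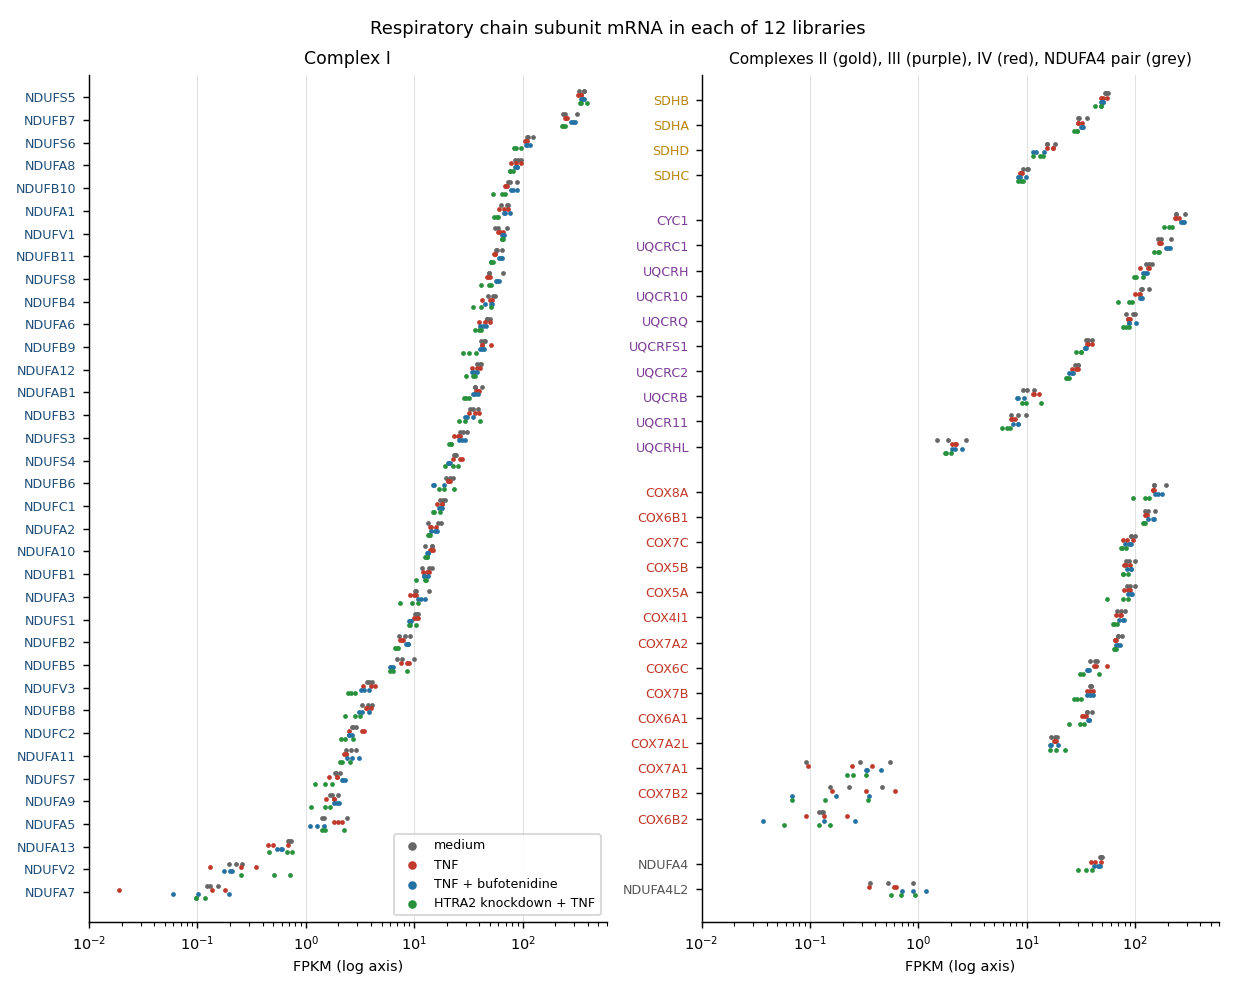
FPKM on a log axis of 66 of the 67 tested subunit genes in each of the 12 libraries, with complex I on the left and complexes II, III, IV and the NDUFA4 pair on the right, ordered by mean level. Points of 1 gene lie close together over the groups, from NDUFS5 at 353 to NDUFA7 at 0.118 FPKM, and the green knockdown points are the lowest for genes such as COX7B and CYC1.

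The core subunits of complex I, which carry its flavin and iron-sulfur clusters or the quinone site, did not lie at 1 level. NDUFV1, which binds NADH and the flavin, was at 55.5 to 72.5 FPKM and its partner NDUFV2 at 0.130 to 0.716. NDUFS8 was at 41.6 to 65.6, NDUFS3 at 21.1 to 30.5, NDUFS1 at 8.93 to 10.8 and NDUFS7 at 1.23 to 2.28. Proteins that stand in 1 copy each in the complex thus had mRNA values that differed far beyond the spread between libraries, and part of the lowest values went with exons shared with other genes, given further on.

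In complex II, SDHB, the iron-sulfur subunit, had the highest level and SDHC, a membrane anchor, the lowest. SDHA, the flavin subunit, was at 30.5, 35.8 and 29.6 FPKM in medium, 29.6, 29.95 and 32.6 with TNF-α, 33.3, 32.3 and 31.9 with bufotenidine and 27.4, 29.1 and 28.97 in the knockdown. The corresponding SDHB values were 53.8, 55.9 and 52.4, 48.5, 50.7 and 55.3, 51.1, 50.6 and 48.4, and 42.5, 48.4 and 48.8. SDHC was at 9.34, 10.1 and 10.2 FPKM in medium, 8.91, 9.005 and 8.72 with TNF-α, 8.60, 9.82 and 8.37 with bufotenidine and 8.39, 8.89 and 9.18 in the knockdown. For SDHC all TNF-α libraries lay below all medium libraries, inside the range of the other groups, with no call (log2 fold change -0.15 ± 0.07 (SE, adjusted p = 0.393)), and the knockdown libraries of SDHA were the lowest of all 12.

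In complex III, the core proteins UQCRC1 and UQCRC2 were at 150.4 to 213 and 23.1 to 29.9 FPKM, and the Rieske iron-sulfur protein UQCRFS1 was at 28.8 to 40.4. The hinge protein UQCRH was at 97.9 to 143 FPKM. UQCRHL, an intronless copy of UQCRH on the same chromosome, had the lowest level of complex III at 1.503 to 2.77. The coding sequences of this pair are shown because reads from them can be hard to assign: over the 273 bases before the stop codon they differed at 4 positions (98.5% identity), given in capitals, on GENCODE 29 transcripts of GRCh38. UQCRH is coded in 4 exons (chr1:46303767-46316581, plus strand) and UQCRHL in 1 (chr1:15807377-15807649, minus strand).
UQCRH: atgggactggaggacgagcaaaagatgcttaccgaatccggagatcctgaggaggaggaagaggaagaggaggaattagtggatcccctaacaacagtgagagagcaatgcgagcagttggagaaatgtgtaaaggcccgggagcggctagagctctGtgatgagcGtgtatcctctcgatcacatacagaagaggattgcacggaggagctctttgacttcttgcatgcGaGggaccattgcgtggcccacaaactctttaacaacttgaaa
UQCRHL: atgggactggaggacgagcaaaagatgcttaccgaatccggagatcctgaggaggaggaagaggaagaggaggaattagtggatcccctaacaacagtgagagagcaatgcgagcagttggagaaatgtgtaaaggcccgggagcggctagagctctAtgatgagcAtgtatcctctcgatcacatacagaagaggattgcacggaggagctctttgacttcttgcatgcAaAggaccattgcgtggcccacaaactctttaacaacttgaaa
UQCRHL held 107 to 209 recovered reads per library and UQCRH 4853 to 6956, and the UQCRHL level is uncertain for that reason.

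Complex IV has subunits with paralogs that other tissues or conditions use, and these cells showed 1 member of each set above the others, far above all but COX7A2L. COX4I1 was at 62.8 to 80.1 FPKM, while its paralog COX4I2, known from lung and hypoxia, was at 0 in all libraries but TNF-α library 3. COX6A1 was at 24.8 to 40.3 FPKM and the heart and muscle form COX6A2 was at 0 in all 12. COX6B1 was at 118 to 151 and the testis form COX6B2 at 0.0369 to 0.262. COX7A2 was at 63.8 to 74.97 and its relative COX7A2L, which takes part in supercomplex assembly, at 16.3 to 22.5, whereas the muscle form COX7A1 was at 0.0929 to 0.548. COX7B was at 27.2 to 41.3 and COX7B2 at 0.0687 to 0.608. COX8A, the highest of complex IV at 95.7 to 191, stood beside COX8C, which was at 0 in all libraries but TNF-α library 2 and knockdown library 1. NDUFA4 was at 29.96 to 49.8 and NDUFA4L2, known as a hypoxia-induced gene, at 0.350 to 1.19 FPKM. A pseudogene of COX6A1 was at 21.2 FPKM, so that the COX6A1 value may hold or lack reads of that copy.

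Some members that every respiring cell needs were nearly absent from the table, and several of these share exons with another annotated gene on the same strand. Of the 71 members, 6 had at least 40% of their principal transcript inside such exons, and their mean levels ran from 0 to 3.42 FPKM with a median of 0.451, against a median of 33.9 for the other 65. NDUFV2 was at 0.289 FPKM with 82.9% of its transcript shared with AP005263.1, NDUFA7 at 0.118 with 75.9%, NDUFA13 at 0.614 with 44.1%, NDUFA11 at 2.48 with 66.98% and NDUFB8 at 3.42 with 71.7%. The readthrough gene NDUFC2-KCTD14, whose whole transcript lies in exons of other genes, was at 0 in all 12 libraries. The gene that shares the exons was low as well, at most 2.69 FPKM. HTSeq, which the submitters' processing notes name, by default leaves a read that falls on exons of 2 genes uncounted. Whether that setting was used is not given in the sources used here, and its part in these levels was not tested. Of the other 65 members, 13 were also below 5 FPKM, so low levels occurred under that share too. Exons on the opposite strand are not in this share, although the library kit does not mark strand.

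NDUFV2, on chromosome 18 (chr18:9102630-9134345, plus strand, GRCh38), shows the overlap in full: all 8 of its coding exons lie whole inside exons of AP005263.1. The longest of them, 169 bases at chr18:9122513-9122681, reads as follows on the GENCODE 29 transcript, without capitals since the stretch is shared from end to end.
NDUFV2 exon: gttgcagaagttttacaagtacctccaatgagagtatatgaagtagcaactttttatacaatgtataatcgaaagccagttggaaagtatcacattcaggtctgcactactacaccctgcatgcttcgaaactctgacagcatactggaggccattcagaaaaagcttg
NDUFV2 held 0.256, 0.195 and 0.226 FPKM in medium, 0.251, 0.130 and 0.346 with TNF-α, 0.199, 0.208 and 0.174 with bufotenidine and 0.716, 0.511 and 0.253 in the knockdown, from 11 to 70 recovered reads per library. With so few reads the level of the mRNA is uncertain, and the fold changes of these members below are uncertain in the same way.

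**Figure D2:**
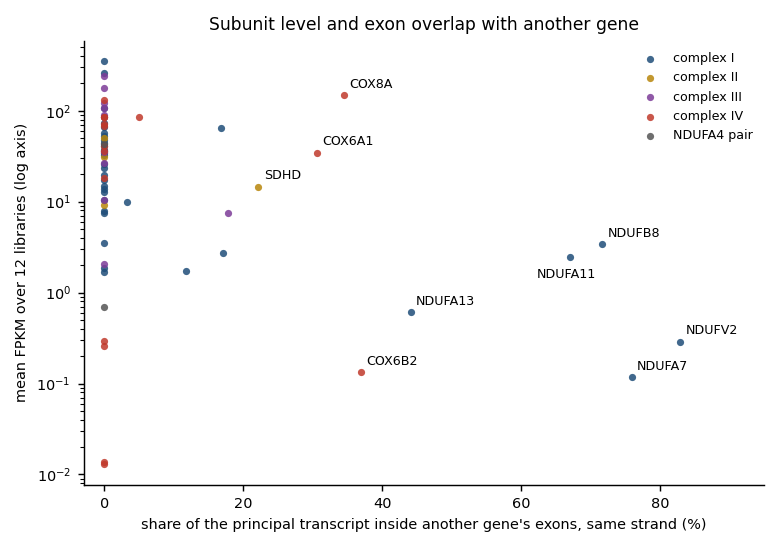
Mean FPKM over the 12 libraries (log axis) of the 69 members above 0 against the share of the principal transcript that lies inside exons of another gene on the same strand, coloured by complex. The 5 plotted members with a share of at least 40% lie at or below 3.42 FPKM, while COX8A, at a share of 34.5%, lies at 148 FPKM.

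The comparison of TNF-α with medium asks how the cytokine changes the transcriptome. No subunit passed the test: 0 of 67 members were called higher and 0 lower at an adjusted p under 0.05 (limma), where 3.22% of all 18079 genes were called higher and 0.885% lower. At an unadjusted p under 0.05 the count was 0 higher, beside 8.87% of all genes, and 1 lower, NDUFS3, beside 5.92%. Voom on the recovered reads called 0 and 0, as did the fit without TNF-α library 3 and knockdown library 2. NDUFS3 was at 28.2, 30.5 and 26.5 FPKM in medium and 25.2, 23.3 and 26.7 with TNF-α, so that 1 TNF-α library lay inside the range of medium (log2 fold change -0.18 ± 0.07 (SE, adjusted p = 0.259)). The members lay slightly low as a body, with 47 of 67 fold changes below 0 and a median log2 fold change of -0.07, beside -0.0020 over all genes tested. Every TNF-α library lay above every medium library for 0 members (11.1% of all genes) and below for 9 (8.74% of all genes). Much of this rested on medium library 2, in which 58 of 67 members stood above their own mean over the 12 libraries. Without it the median was -0.03. Over the 60 members with a mean of at least 1 FPKM, the fold changes had a Pearson correlation of -0.44 with the GC content of the longest transcript. Over 11180 genes of that level it was -0.12. The 30 GC-rich members had a median of -0.10 with 3 above 0, and the 30 GC-poor members -0.02 with 14 above 0. What set this slope was not tested either.

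Intervals for single subunits were narrow where the level was high. For SDHA the 95% interval of the log2 difference between TNF-α and medium was -0.23 to 0.12, and for UQCRC2 it was -0.20 to 0.10. For NDUFV2 it was -0.74 to 0.79. A change of that last size would not be detectable in NDUFV2 at this depth.

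Bufotenidine in the presence of TNF-α was compared with TNF-α alone. Again 0 of 67 members were called higher and 0 lower, where 0.0332% of all genes were called higher and 0.00553% lower. At an unadjusted p under 0.05, 6 members were higher and 8 lower, near the 9.6% and 10.5% of all genes. The number of all genes called depended on the setting: it was 6 higher and 1 lower here, 78 and 49 with a filter at a mean of 1 FPKM, 139 and 97 with voom, and 473 and 438, 2.62% and 2.42%, in a fit to these 2 groups alone. Of the members the filter and voom called 0 in either direction, and the fit to 2 groups 3 higher and 2 lower. Without TNF-α library 3 and knockdown library 2 it was 0 and 0. Bufotenidine libraries all lay above the TNF-α libraries for 15 members (16.3% of all genes) and all below for 10 (15.5% of all genes). The median log2 fold change was 0.05 over the members, 0 over all genes and 0.05 over the 4163 genes with a mean of at least 10 FPKM. The members' median was 0.02 without bufotenidine library 2, 0.03 without bufotenidine library 1 or TNF-α library 2, and 0.08 without bufotenidine library 3.

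The direction in this comparison followed base composition. Over the 60 members with a mean of at least 1 FPKM, the log2 fold change had a Pearson correlation of 0.70 (Spearman 0.69) with the GC content of the gene's longest transcript, and over 11180 genes of that level the Pearson correlation was 0.60. Genes are not independent replicates, and all points share the same 6 libraries, so this is a description. In the 30 members under a GC content of 47.7% the median was -0.06 with 11 above 0, and in the 30 over it 0.09 with 25 above 0. SDHD, at 41.0% GC, was at 15.4, 17.4 and 17.4 FPKM with TNF-α and 11.3, 14.4 and 12.2 with bufotenidine (log2 fold change -0.41 ± 0.11 (SE, adjusted p = 0.106)). NDUFS8, at 57.9% GC, was at 47.1, 48.2 and 50.3 and 60.3, 57.02 and 58.5 (log2 fold change 0.27 ± 0.11 (SE, adjusted p = 0.201)). Neither pair of groups overlapped, and neither gene passed the test. The same slope was seen between single libraries: the deviation of the members from their own means correlated with GC at 0.42 to 0.72 in the bufotenidine libraries, at -0.56 to -0.32 in the TNF-α libraries, and at 0.58 in medium library 2 against -0.22 and -0.50 in the other medium libraries. With the GC trend of each library removed, an alternative chosen after seeing the data, the median of the members was -0.01 and 0 were called in either direction. What set this slope was not tested.

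**Figure D3:**
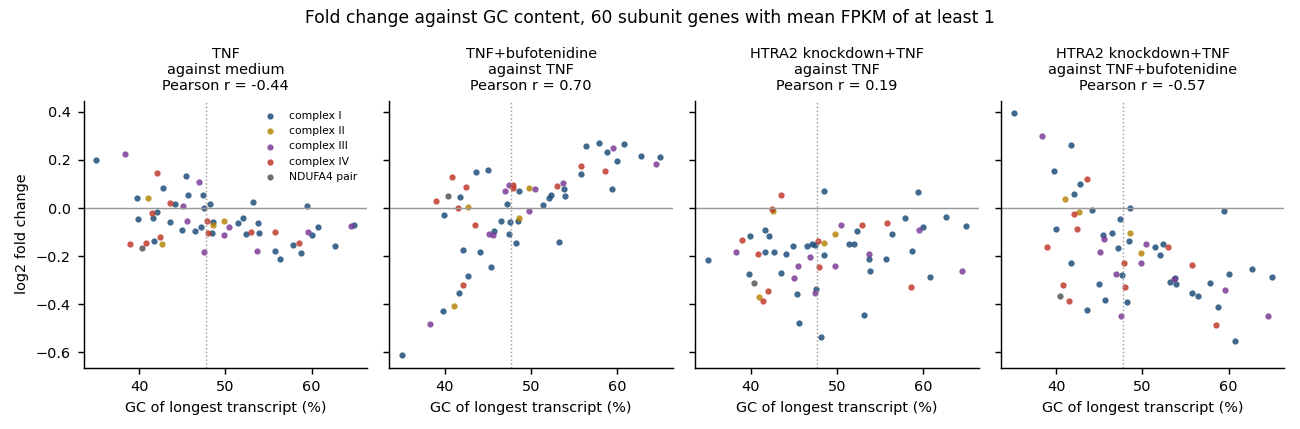
Log2 fold change against the GC content of the longest transcript (%) for the 60 members with a mean of at least 1 FPKM, in 4 comparisons, coloured by complex, with the dotted line at 47.7% GC. The points fall with GC for TNF-α against medium (Pearson -0.44) and rise with it for bufotenidine against TNF-α (0.70). They lie mostly below 0 at all GC contents for the knockdown against TNF-α (0.19), and fall with GC for the knockdown against bufotenidine (-0.57).

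HTRA2 knockdown under TNF-α was compared with TNF-α alone to ask how lower HTRA2 changes the transcriptome. Of 67 members 10 were called lower and 0 higher, where 8.08% of all 18079 genes were called lower and 9.35% higher. By complex, those lower were 5 of 37 in complex I, 1 of 4 in complex II and 3 of 10 in complex III. In complex IV it was 1 of 14, a share of 7.14%. The 10 were NDUFV3, NDUFB9, NDUFB8, NDUFAB1 and NDUFS6 of complex I, SDHD of complex II, UQCR10, UQCRFS1 and UQCRC2 of complex III, and COX7B of complex IV. No member met the study's threshold of a 2-fold change with an unadjusted p of at most 0.05. Knockdown libraries all lay below the TNF-α libraries for 22 members (16.4% of all genes) and all above for 0 (17.5% of all genes). The median log2 fold change was -0.18 over the members, with 59 of 67 below 0, beside -0.0034 over all genes and -0.06 over genes with a mean of at least 10 FPKM. In bulk RNA a different mix of cells and a different level per cell cannot be told apart.

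Abundant genes were called lower more often than the average gene, and most members are abundant. Of the 4163 genes with a mean of at least 10 FPKM 17.1% were called lower and 12.9% higher, and of the 47 members at that level 8 were called lower, a share of 17.0%, and 0 higher. The share of called members was thus near that of genes of like level, while 44 of these 47 had a fold change below 0.

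**Figure D4:**
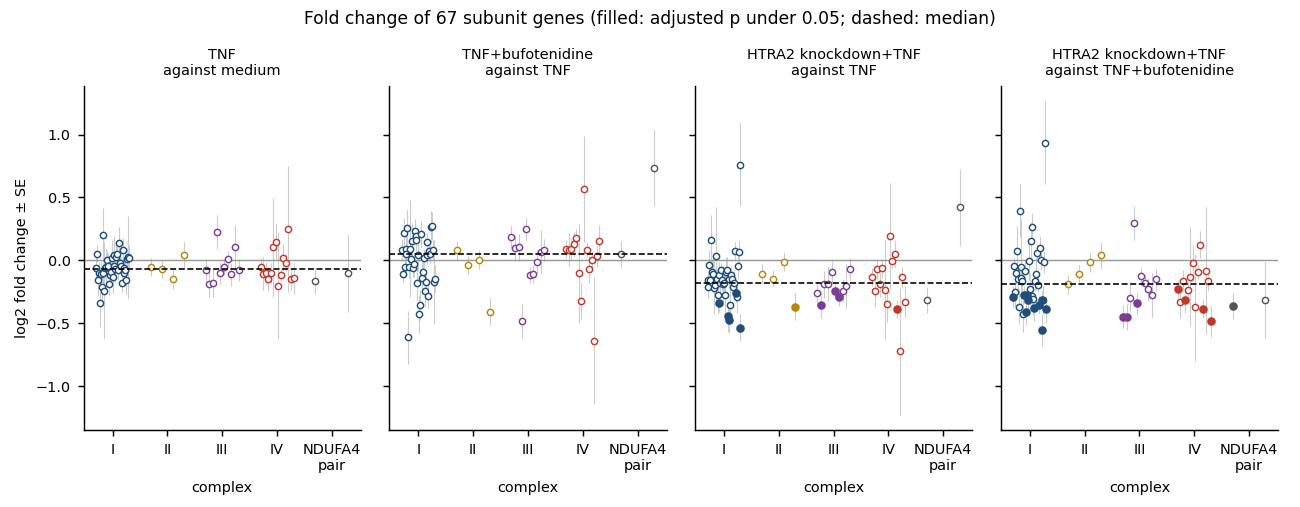
Log2 fold change with its standard error for the 67 tested members in 4 comparisons, by complex, with filled points at an adjusted p under 0.05 and a dashed line at the median of the members. Filled points appear only in the 2 comparisons with the knockdown, 10 and 18 of them, all below 0.

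COX7B, a small subunit of complex IV, was at 41.3, 38.2 and 36.1 FPKM with TNF-α and 27.2, 29.2 and 32.03 in the knockdown, against 38.7, 39.4 and 39.1 in medium and 38.7, 40.8 and 36.1 with bufotenidine. Every knockdown library lay below the other 9 (log2 fold change -0.39 ± 0.08 (SE, adjusted p = 0.00425)). It was also the member with the smallest adjusted p. UQCR10, a small subunit of complex III, fell from 111, 109 and 99.1 FPKM to 87.8, 69.99 and 93.4 (log2 fold change -0.35 ± 0.10 (SE, adjusted p = 0.0341)). In medium and with bufotenidine UQCR10 was at 115, 134 and 113 and 113, 117 and 110.3 FPKM.

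Of complex I, NDUFV3, an accessory subunit of the NADH-oxidising module, was at 3.96, 4.37 and 3.40 FPKM with TNF-α and 2.63, 2.47 and 2.86 in the knockdown (log2 fold change -0.54 ± 0.11 (SE, adjusted p = 0.00511)), the largest fall among the called members. NDUFAB1, the mitochondrial acyl carrier protein, was at 37.3, 38.1 and 39.3 and 28.8, 30.2 and 31.8 FPKM (log2 fold change -0.34 ± 0.07 (SE, adjusted p = 0.00700)). For both, all knockdown libraries lay below all 9 others. NDUFB9 was at 42.1, 42.5 and 51.3 FPKM with TNF-α and 28.4, 37.4 and 31.9 in the knockdown (log2 fold change -0.48 ± 0.10 (SE, adjusted p = 0.00770)). NDUFS6, a zinc-binding accessory subunit, was at 109, 104 and 109 and 84.2, 87.1 and 97.8 FPKM (log2 fold change -0.26 ± 0.07 (SE, adjusted p = 0.0224)). These 2 did not overlap between the groups either. NDUFB8, at 4.04, 3.71 and 3.60 and 2.30, 2.84 and 3.16 FPKM, had a log2 fold change of -0.45 ± 0.13 (SE, adjusted p = 0.0292), and its level is uncertain because 71.7% of its transcript is shared with another gene.

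In complex III the Rieske protein UQCRFS1 was at 35.8, 36.98 and 40.2 FPKM with TNF-α and 28.8, 31.6 and 31.9 in the knockdown (log2 fold change -0.29 ± 0.07 (SE, adjusted p = 0.0136)). Core protein UQCRC2 was at 29.6, 26.2 and 28.7 and 23.6, 24.7 and 23.1 FPKM (log2 fold change -0.24 ± 0.06 (SE, adjusted p = 0.0230)). All 10 members of complex III had a fold change below 0, and 3 passed the test. SDHD, a membrane anchor of complex II, was at 15.4, 15.3 and 18.2 FPKM in medium, 15.4, 17.4 and 17.4 with TNF-α, 11.3, 14.4 and 12.2 with bufotenidine and 11.5, 14.2 and 13.1 in the knockdown (log2 fold change against TNF-α -0.37 ± 0.11 (SE, adjusted p = 0.0372)). The knockdown and bufotenidine libraries of SDHD overlapped, and both groups lay below all TNF-α libraries. Both comparisons share the TNF-α libraries.

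**Figure D5:**
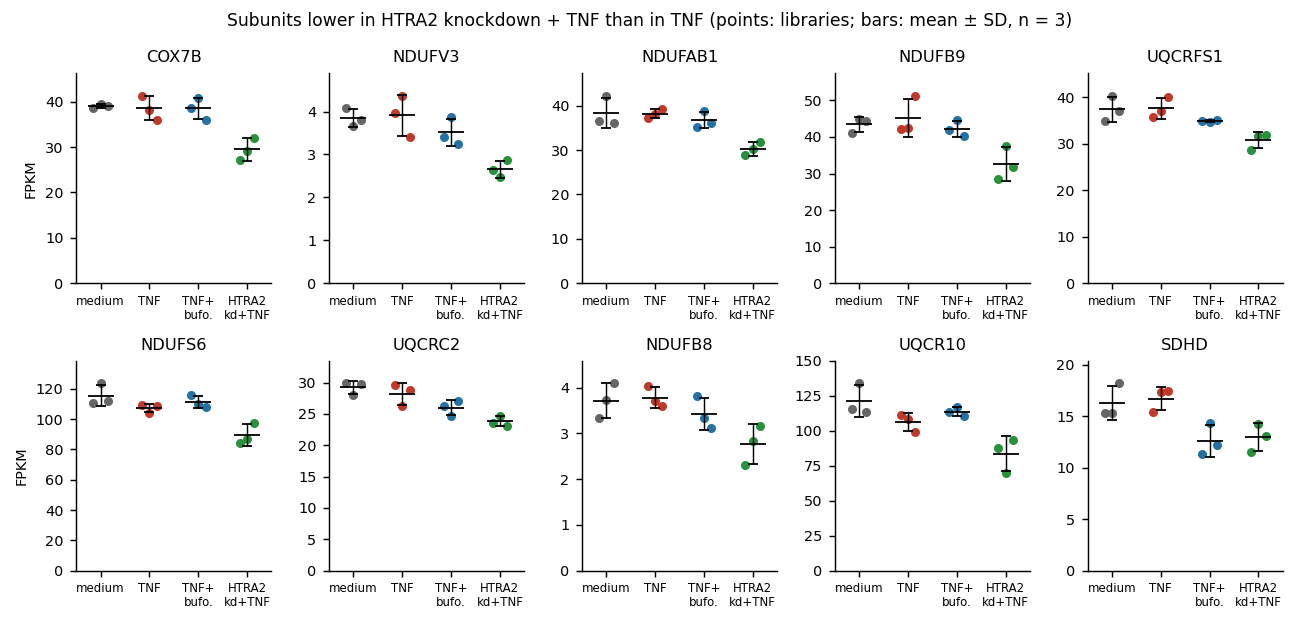
FPKM per library, with mean ± SD of the 3 libraries of each group, for the 10 members called lower in the knockdown than with TNF-α alone, on axes that start at 0. The knockdown points lie below all TNF-α points in each panel, for COX7B at 27.2 to 32.0 against 36.1 to 41.3 FPKM.

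Core subunits mostly missed the threshold. NDUFS3 had a log2 fold change of -0.21 ± 0.07 (SE, adjusted p = 0.0685) and NDUFS7 of -0.29 ± 0.13 (SE, adjusted p = 0.146). NDUFV1 was at 0.07 ± 0.09, NDUFS1 at -0.12 ± 0.07 and NDUFS8 at -0.04 ± 0.11. CYC1 had -0.26 ± 0.09 (SE, adjusted p = 0.0648) and UQCRC1 -0.09 ± 0.09 (SE, adjusted p = 0.537), and in complex II SDHA was at -0.11 ± 0.07, SDHB at -0.14 ± 0.07 and SDHC at -0.01 ± 0.07. The highest value was that of NDUFV2, 0.76 ± 0.33 (SE, adjusted p = 0.138), on 25 to 70 reads per knockdown library. Among the paralogs, COX4I1 was at -0.14 ± 0.07, COX7A2 at -0.00 ± 0.06 and COX7A2L at 0.05 ± 0.11, and NDUFA4 had -0.31 ± 0.10 (SE, adjusted p = 0.0574).

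The count of called members depended on single libraries. It was 4 without knockdown library 1, with 1186 of all genes higher and 829 lower, 6 without TNF-α library 3, with 1368 and 1009, and 14 without knockdown library 2, with 1853 and 1484, in place of 1691 and 1461. The median of the members was -0.11 without knockdown library 1, and -0.15 to -0.19 without any other. COX7B, NDUFV3, NDUFAB1 and NDUFB9 passed the test whichever of the 6 libraries was left out. UQCRFS1 passed in 4 of these 6 fits, NDUFS6 in 3, and NDUFB8, SDHD, UQCR10 and UQCRC2 in 2. Without TNF-α library 3 and knockdown library 2 together, an alternative chosen after seeing the data, 5 members were lower, 0 higher, and the median was -0.16. Over all genes that fit called 1482 higher and 1057 lower. With the GC trend removed, 22 members were lower and 0 higher, beside 1965 genes higher and 2644 lower.

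The knockdown and bufotenidine groups, both under TNF-α, were compared directly, since the study asks whether the compound acts through HTRA2. Here 18 of 67 members were called lower in the knockdown and 0 higher, where 7.43% of all genes were called lower and 7.85% higher. Every knockdown library lay below every bufotenidine library for 35 members (17.6% of all genes) and above for 1 (18.2% of all genes), NDUFV2. The median log2 difference was -0.19 over the members, 0.01 over all genes and -0.07 over genes with a mean of at least 10 FPKM. At that level 15 of 47 members were called lower, a share of 31.9%, beside 18.2% of all genes of that level. By complex, the 18 were 10 of complex I, 0 of complex II, 3 of complex III, 4 of complex IV and NDUFA4.

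The 10 called members with the largest log2 difference included core subunits and the most abundant genes of complexes III and IV. NDUFS7, a core iron-sulfur subunit, was at 2.28, 2.22 and 2.18 FPKM with bufotenidine and 1.74, 1.23 and 1.52 in the knockdown (log2 difference -0.55 ± 0.13 (SE, adjusted p = 0.0138)). COX8A was at 177, 154 and 162 and 124, 95.7 and 135 FPKM (log2 difference -0.49 ± 0.12 (SE, adjusted p = 0.0232)), and CYC1 at 278, 285 and 263 and 205, 184 and 218 (log2 difference -0.45 ± 0.09 (SE, adjusted p = 0.00710)). In none of these 3 did the groups overlap. NDUFB10 was at 88.3, 77.5 and 81.5 and 64.1, 53.2 and 69.6 FPKM (log2 difference -0.41 ± 0.10 (SE, adjusted p = 0.0188)), and NDUFA4 at 45.6, 47.6 and 41.9 and 35.1, 29.96 and 40.4 (log2 difference -0.37 ± 0.10 (SE, adjusted p = 0.0347)). NDUFS3 was at 29.3, 27.6 and 26.1 and 21.1, 22.1 and 21.7 FPKM (log2 difference -0.35 ± 0.07 (SE, adjusted p = 0.00819)).

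The other 4 of the 10 were UQCR10, NDUFV3, COX7B and NDUFB9, whose log2 differences were -0.45, -0.39, -0.39 and -0.38 here beside -0.35, -0.54, -0.39 and -0.48 against TNF-α. The 2 comparisons share the knockdown libraries, so these values are not independent. UQCRC1 fell as well, at -0.34 ± 0.09 (SE, adjusted p = 0.0238), and so did COX6A1, at -0.32 ± 0.10 (SE, adjusted p = 0.0499), and COX4I1, at -0.23 ± 0.07 (SE, adjusted p = 0.0498). The COX4I1 call held in 4 of 12 other settings and the COX6A1 call in 6 of 12, and each in 1 of the 6 fits with a library left out. SDHD, at 0.04 ± 0.11, did not pass, nor did UQCRC2 at -0.13 ± 0.06 or UQCRFS1 at -0.18 ± 0.07. UQCRB and NDUFB6, chosen after their values were seen, went the other way at 0.30 ± 0.14 and 0.26 ± 0.12, with no call.

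GC content moved with this comparison too. The Pearson correlation of the log2 difference with GC was -0.57 over the 60 members and -0.35 over 11180 genes. The GC-rich members had a median of -0.28 with 0 of 30 above 0, and the GC-poor members -0.11 with 8 above 0. With the GC trend of each library removed, 22 members were lower and 0 higher, beside 1429 of all genes higher and 1798 lower. The number called was 6 without bufotenidine library 1, with 824 of all genes higher and 592 lower in place of 1419 and 1343. It was 8 without bufotenidine library 2 (774 and 540), 12 without bufotenidine library 3 (1090 and 855) and 9 without knockdown library 1 (955 and 802). It was 11 without knockdown library 2 (1023 and 747) and 20 without knockdown library 3 (1261 and 1445). Without TNF-α library 3 and knockdown library 2 together it was 8 (995 and 701). Rescaling each library to a fixed sum moved the split over all genes from 1419 higher and 1343 lower to 1741 and 1013, with 12 members lower and 0 higher. COX7B, CYC1 and NDUFS3 passed the test whichever of the 6 libraries was left out, NDUFS7 and UQCR10 in 5 of these fits, NDUFB10 in 4, COX8A in 3, and NDUFA4, NDUFB9, NDUFV3 and UQCRC1 in 2.

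Other mitochondrial lists moved the same way in the knockdown against TNF-α. Of 18 subunits of ATP synthase (complex V) 6 were called lower and 0 higher with a median log2 fold change of -0.19, with ATP5MC1, a c-ring gene, at -0.52 ± 0.09 (SE, adjusted p = 0.00217) and the catalytic subunit gene ATP5F1B at -0.33 ± 0.07 (SE, adjusted p = 0.00994). Of 49 tested assembly factors of complexes I to IV 15 were lower and 0 higher, with a median of -0.19. They included NDUFAF2 of complex I (-0.68), SDHAF3 of complex II (-0.64), LYRM7 of complex III (-0.64) and COX11 of complex IV (-0.62). Of 78 mitochondrial ribosomal proteins 28 were lower and 0 higher with a median of -0.26, and of 84 tested cytosolic ribosomal proteins, which are not mitochondrial, 21 were lower and 0 higher with a median of -0.21. Beside these counts stand 8.08% lower and 9.35% higher over all genes. Over genes with a mean of at least 10 FPKM it was 17.1% lower and 12.9% higher.

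The 13 mRNAs of mitochondrial DNA, which code for the other subunits of complexes I, III, IV and V, had a median of -0.26 with 0 called, and knockdown library 2 held most of the difference. MT-CO1, the catalytic subunit of complex IV, was at 7594, 8142 and 6998 FPKM with TNF-α and 8015, 5805 and 8963 in the knockdown, so that 2 knockdown libraries lay within or above the TNF-α range. Of 13 tested regulators of respiratory genes 1 was lower, a share of 7.69% beside 8.08% of all genes. It was TFB2M, a mitochondrial transcription factor, at -0.41 ± 0.11 (SE, adjusted p = 0.0249). NRF1 had -0.28 ± 0.10 (SE, adjusted p = 0.0645) and TFAM -0.42 ± 0.15 (SE, adjusted p = 0.0712). Of 13 mitochondrial proteases 4 were lower (30.8%, beside 8.08% of all genes), among them HTRA2, the gene targeted. PARL was at -0.62 ± 0.17 (SE, adjusted p = 0.0228) and AFG3L2 at -0.34 ± 0.10 (SE, adjusted p = 0.0330). Some cell type markers moved with the knockdown: the mesenchymal gene VIM had -1.68 ± 0.14 (SE, adjusted p = 1.75e-05) and COL1A1 1.23 ± 0.14 (SE, adjusted p = 0.000126). Of the 5 epithelial markers 2 were called higher, CDH1 at 0.40 ± 0.06 (SE, adjusted p = 0.00108) among them, and 0 lower. Of these 5 fold changes 3 were below 0, with a median of -0.02. The leukocyte marker CD14, under 1 FPKM in all libraries, had 1.41 ± 0.35 (SE, adjusted p = 0.0163). Their part in the subunit values was not tested.

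With TNF-α against medium, 0 of 18 ATP synthase subunits, 0 of 49 assembly factors and 0 of 84 cytosolic ribosomal proteins were called, and 1 of 78 mitochondrial ribosomal proteins, MRPS24, was higher at 1.86 ± 0.20 (SE, adjusted p = 0.000174). Over all genes 3.22% were called higher and 0.885% lower. With bufotenidine against TNF-α none of the lists held a call, beside 0.0332% of all genes called higher and 0.00553% lower. The assembly factors had a median of -0.16 there. In the knockdown against bufotenidine 3 of 18 ATP synthase subunits (16.7%), 11 of 49 assembly factors, 29 of 78 mitochondrial and 31 of 84 cytosolic ribosomal proteins were lower. Beside these stand 7.43% of all genes, and 18.2% of genes with a mean of at least 10 FPKM. Only 1 assembly factor, NUBPL, was higher, at 0.56 ± 0.10 (SE, adjusted p = 0.00469), where 7.85% of all genes were.

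Promoters of respiratory genes are known for sites of NRF1 and of ETS factors such as GABPA. In the 250 bases before the RefSeq start site, held for 57 members, the letters GCGCANGCG (NRF1) were found on either strand in 15 members (26.3%), beside 13.0% of 9955 coding genes. CCGGAAG (ETS) was found in 14 (24.6%), beside 16.2%, and ATGGCGGC (YY1) in 2 (3.51%), beside 1.95%. Any of the 3 was found in 28 members (49.1%) and in 28.1% of the coding genes. These are matches of letters and not sites. Exon-free stretches upstream of 3 members that were lower in the knockdown are shown with any match in capitals, from the RefSeq promoter table on GRCh38.p14, 5′ to 3′ on the strand of the gene. COX7B (chrX:77899218-77899437, plus strand) and UQCR10 (chr22:29767119-29767368, plus strand) held none of the 3, and COX6A1 (chr12:120437863-120438089, plus strand) held the NRF1 letters read on the opposite strand. The 250 bases of COX6A1 also held 1 match of the ETS letters, which is not whole within the stretch shown.
COX7B: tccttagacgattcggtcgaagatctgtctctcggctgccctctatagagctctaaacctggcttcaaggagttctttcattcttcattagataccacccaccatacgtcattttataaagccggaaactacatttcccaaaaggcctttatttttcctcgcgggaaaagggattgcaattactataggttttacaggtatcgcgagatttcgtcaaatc
UQCR10: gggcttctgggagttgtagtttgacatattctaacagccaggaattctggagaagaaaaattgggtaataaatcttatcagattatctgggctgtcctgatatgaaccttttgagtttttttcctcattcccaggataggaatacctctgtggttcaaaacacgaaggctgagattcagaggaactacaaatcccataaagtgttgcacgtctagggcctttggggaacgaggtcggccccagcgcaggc
COX6A1: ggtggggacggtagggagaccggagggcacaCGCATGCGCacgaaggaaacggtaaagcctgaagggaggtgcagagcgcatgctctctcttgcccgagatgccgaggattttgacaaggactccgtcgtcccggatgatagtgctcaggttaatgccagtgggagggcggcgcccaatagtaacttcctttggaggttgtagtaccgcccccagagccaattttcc
COX7B and UQCR10 were called lower against both TNF-α and bufotenidine, and COX6A1 against bufotenidine, with -0.19 ± 0.10 against TNF-α.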

How the data were processed

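RNA of NCM460 cells was sequenced in 12 poly(A)-selected libraries made with a kit that does not mark strand. What the authors deposited are FPKM, 1 value for each gene in each library, beside a gene length. The submitters' processing notes name CASAVA 1.8, HISAT2 2.0.4, HTSeq 0.9.1 and hg38, with no role, and the divisor of the FPKM is not given in the sources used here. FPKM times length, divided by a step fitted for each library from its smallest nonzero product, gave whole reads, within 0.01 reads, for 100% of values. Gene coordinates matched GENCODE 29 (GRCh38) for 99.9% of genes and for all 71 members, and the lengths of all 71 equalled the union of their exons.

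Values were put on the scale log2(FPKM + 0.1), genes averaging under 0.1 FPKM were dropped, and limma 3.58.1 in R 4.3.3 compared the groups in 1 fit of all 4 (eBayes with trend, 8 residual degrees of freedom, two-sided). P-values were adjusted by Benjamini-Hochberg over all 18079 genes, and a gene was called at an adjusted p under 0.05. Fold changes are on the log2(FPKM + 0.1) scale, which understates those of low genes. An exact permutation test of 3 libraries against 3 cannot go below p = 0.1. The model was tested on simulated data. Members and lists were chosen with earlier results of these data known. Named were, per comparison, called members (the 10 with the largest log2 fold change if over 10), paralog sets, complex II, core subunits, the highest and lowest member per complex, members under the filter, and up to 4 called genes per other list. Some genes under this rule are not reported here. Alternatives were pseudocounts, filters, rescaling, quantile normalization, fits to 2 groups, no trend, a replicate block, voom on the recovered reads, and leaving out each library. Figures used matplotlib 3.10.9.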

Additional observations from a re-analysis of the deposited data

How the results depend on the processing

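No single gene named here reversed its direction where it was called. With TNF-α against medium 0 members were called under every alternative run. With bufotenidine against TNF-α a fit to the 2 groups called 3 higher and 2 lower, beside 473 and 438 of all genes, and the others called 0. For the knockdown against TNF-α, 4 members were lower in the fit to 2 groups, beside 1330 of all genes higher and 892 lower. Without the variance trend it was 6 (1601 and 1160), and with the GC trend removed 22 (1965 and 2644). With 1 library left out 4 to 14 were lower and 0 to 1 higher. For the knockdown against bufotenidine 10 members were lower without a filter, beside 1142 of all genes higher and 903 lower. It was also 10 in the fit to 2 groups (1073 and 857) and 10 without the trend (1207 and 927). With 1 library left out 6 to 20 were lower and 0 to 1 higher. The members' median was -0.11 after rescaling to a fixed sum, where that of all genes was 0.09 (members minus all genes -0.19, beside -0.20). Voom on the recovered reads called 13 members lower against TNF-α, beside 1949 of all genes higher and 1740 lower. Against bufotenidine it called 20 (1900 and 1469). Over the named genes 2280 values kept their side of the threshold, but 1938 were values uncalled in both settings. Among values uncalled in both, 103 changed sign. Another 108 values lost the threshold and 36 gained it. Replicate numbers were shared by all groups, but same-numbered libraries did not deviate together (18 pairs, correlation -0.10 to 0.04), so the libraries share only a number. In 36 matches of a library with another group, the closest library had the same number in 13. With the replicate block 7 members were lower in the knockdown against TNF-α, beside 1492 of all genes higher and 1168 lower. Against bufotenidine it was 13 (1114 and 948). Members under a few reads per library, and those in exons shared with other genes, are limited by depth.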
